A study of Mus musculus with 12 samples.

Results

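Primary mouse microglia given the culture supernatant of Th17 cells were compared with microglia given T cell medium alone, on 8 of the 12 arrays of the series. Arrays whose titles end in Th17 (4) were compared with arrays whose titles end in IMDM (4, called untreated here as the medium control), and the 4 arrays of microglia given Th1 supernatant enter only where a value is set beside theirs. Each group held experiments 12, 13, 14 and 16, so there were 4 pairs, each pair being the Th17 and the untreated array of 1 experiment. The cells were harvested from mixed glial cultures of newborn C57BL/6 mice, as the study's methods describe, and RNA was taken 16 h after the supernatant was added. No allele or transgene is named for any group. The supernatant is a mixture, its content was not measured in the files, and whether the 4 experiments used 1 batch of it is not given in the sources used here.

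Microglia are the resident macrophages of the brain. Th17 cells are helper T cells known for interleukin-17 and can also release IL-21, IL-22, GM-CSF and other cytokines, depending on how they were raised. IL-17 signals through the receptor chains IL17RA and IL17RC and the adaptor Act1 (gene Traf3ip2) and is best known for raising chemokines and other inflammatory transcripts in stromal cells and astrocytes. Cytokines of the IL-6, IL-10 and IL-21 families act through STAT3, which switches on its own feedback inhibitor, Socs3. The question of this comparison was whether microglia answer to what Th17 cells release, and in particular whether small differences recurred in all 4 experiments.

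Levels are log2 signals after quantile normalization, with a floor of 15 intensity units, which is 3.91 on the log2 scale. A difference is the Th17 level minus the untreated level on the log2 scale, and its error is the standard error (SE) of a limma fit over 4 pairs. After a filter on dim probes 19208 genes were tested. The 11 measured microglia and macrophage markers, such as Csf1r, Tyrobp and Aif1, were well above background on all 8 arrays, and their summed linear signal was 968000 to 1310000 on the untreated and 972000 to 1400000 on the Th17 arrays. The same sum was 10100 to 11700 and 6620 to 11500 for the 6 measured of 14 T cell markers and 4930 to 12000 and 4100 to 11900 for the 6 measured of 10 astrocyte markers, and sums over different probes are not compared with each other. For the 5 measured of 8 endothelial markers the sum was 14600 to 19000 untreated and lower, at 12200 to 14500, with Th17 supernatant. The median difference of these endothelial markers was 0.03. The measured T cell markers Cd3e, Cd4, Cd28, Cd5, Lck and Il7r were well above background on all 8 arrays, Il17f was on 3, and Cd3d, Cd3g, Cd8a, Ifng and Il17a on 0. Of the astrocyte markers Aldoc, Aldh1l1, Fabp7 and Aqp4 were above background on all 8 arrays, Gfap on 2 untreated and 4 Th17 arrays, S100b on 3 and 2, Slc1a3 on 2 of the 8, and Slc1a2, Gja1 and Sox9 on 0. The part of other cell types in the results was not tested.

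No gene passed the test. By limma with Benjamini-Hochberg adjustment, 0 of 19208 genes (0%) reached an adjusted p under 0.01 with a change over 2-fold, the thresholds of the study, and 0 (0%) reached an adjusted p under 0.05 with the same direction in all 4 pairs, with no minimum fold. The lowest adjusted p was 0.232, for Socs3. At an unadjusted p under 0.05, 586 genes were higher (3.05%) and 598 lower (3.11%) after Th17 supernatant, a split that became 369 and 814 with 75th percentile scaling in place of quantile normalization. Without experiment 13 the calls were again 0 by both rules, with 418 genes higher (2.18%) and 376 lower (1.96%) at an unadjusted p under 0.05 and a lowest adjusted p of 0.942. With Th1 supernatant in the same 4 experiments, 4602 genes were higher (24%) and 6224 lower (32.4%) than on the same untreated arrays at an adjusted p under 0.05, and the direct difference between the 2 supernatants passed for 4525 genes higher (23.6%) and 6009 lower (31.3%) after Th1.

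Genes that pointed the same way in every pair were counted next, without a test. Signs that fell at random would also give such genes in both directions, and more of them with 3 pairs than with 4. In all, 1469 genes were higher in all 4 pairs (7.65%) and 1502 were lower in all 4 (7.82%), and 1069 and 2017 with 75th percentile scaling. Most of these differences were slight. The smallest of the 4 pair differences exceeded 0.25 in 99 of the higher and 83 of the lower genes, 0.5 in 19 and 9, and 1, which is a doubling in every experiment, in 4 and 0. The 4 genes that were over 2-fold higher in every experiment were Nxpe5, Socs3, Atrnl1 and Gdpd2. Without experiment 13, 2511 genes were higher in all 3 remaining pairs (13.1%) and 2385 lower (12.4%), and 4 and 0 of these differed by more than 1 in each pair. Groups that did not overlap at all, every Th17 array lying beyond every untreated array, were found for 102 genes above (0.531%) and 87 below (0.453%). These counts describe the arrays, and the genes named next were chosen on these same differences, so their values are a description.

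The promoter stretches of 4 genes are shown because their transcripts carry the patterns described below. Socs3 and Cish encode feedback inhibitors of cytokine receptors and were higher in all 4 pairs. Tgtp2 and Gbp2, a pair of interferon-inducible GTPases, were highest on the Th17 array of experiment 13. Sequences are from RefSeq's windows of 250 bases before and 50 after the annotated start (build GRCm38.p6, 5′ to 3′ on the strand of the gene). Capitals mark matches to the STAT-type motif TTCNNNGAA, which reads the same on both strands, and to the interferon-type motif GAAANNGAAA, searched on both strands (TTTCNNTTTC on the other). The first motif lay in 8.3% and the second in 3.44% of all 32851 windows.
Socs3, chr11:117969367-117969616, minus strand: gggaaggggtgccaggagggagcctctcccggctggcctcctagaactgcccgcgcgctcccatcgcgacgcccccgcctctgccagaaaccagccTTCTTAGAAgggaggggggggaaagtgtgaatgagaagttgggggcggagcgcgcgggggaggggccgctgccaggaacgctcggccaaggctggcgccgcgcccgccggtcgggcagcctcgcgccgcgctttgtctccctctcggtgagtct
Cish, chr9:107296509-107296678, plus strand: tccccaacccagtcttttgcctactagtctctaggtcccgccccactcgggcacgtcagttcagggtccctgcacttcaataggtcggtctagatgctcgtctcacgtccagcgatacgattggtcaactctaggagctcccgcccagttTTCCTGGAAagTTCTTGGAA
Tgtp2, chr11:49064213-49064462, minus strand: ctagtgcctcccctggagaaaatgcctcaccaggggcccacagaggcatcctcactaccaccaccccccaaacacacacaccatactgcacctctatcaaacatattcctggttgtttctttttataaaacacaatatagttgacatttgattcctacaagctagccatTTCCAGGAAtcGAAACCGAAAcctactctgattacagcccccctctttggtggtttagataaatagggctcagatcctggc
Gbp2, chr3:142620413-142620662, plus strand: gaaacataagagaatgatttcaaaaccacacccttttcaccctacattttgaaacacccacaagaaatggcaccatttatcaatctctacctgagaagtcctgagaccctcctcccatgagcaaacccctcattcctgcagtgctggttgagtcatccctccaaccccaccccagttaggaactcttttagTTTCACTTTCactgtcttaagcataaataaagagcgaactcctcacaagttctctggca
The Socs3 match begins 154 bases before the start. In Tgtp2 the STAT-type match begins 81 and the interferon-type match 70 bases before it, and the Gbp2 match begins 59 bases before it. Cish holds 2 STAT-type matches in a row, the first of them at the start itself. Among the 8 genes of highest rank in each direction described next, 1 of 8 higher genes (Socs3) and 0 of the 7 lower genes with a listed window held the STAT-type motif, and 1 of 8 (Aoah) and 0 of 7 the interferon-type motif. A match of letters is a description of the sequence and not a binding site.

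Socs3, the feedback inhibitor of STAT3 signalling, had the smallest p of all genes. Its untreated levels were 10.94, 10.89, 11.40 and 10.01 in experiments 12, 13, 14 and 16, and its Th17 levels were 12.19, 12.49, 12.87 and 11.30. Experiment 16 was low in both groups, so the groups overlapped, whereas within each experiment the Th17 array was the higher. The pair differences of 1.26, 1.61, 1.47 and 1.29 gave a mean of 1.41 ± 0.09 (SE, 2.65-fold, unadjusted p 1.21e-05 and adjusted p 0.232 by limma). Without experiment 13 the difference was 1.34 ± 0.10.

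Nxpe5, of the neurexophilin-related NXPE family, showed the largest of the repeated differences. It was dim in untreated microglia, at 6.48, 5.91, 5.39 and 6.56, and stood at 8.39, 8.23, 8.99 and 9.16 after Th17 supernatant. The groups did not overlap. The difference was 2.61 ± 0.28 (6.1-fold, adjusted p 0.528 by limma) and 2.70 without experiment 13.

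Atrnl1 (attractin-like 1, a membrane protein) also separated the groups. It lay at 5.33, 5.57, 6.10 and 6.04 untreated and at 6.81, 7.18, 8.06 and 7.10 with Th17 supernatant. The difference was 1.53 ± 0.15 (2.88-fold, adjusted p 0.523 by limma). Gdpd2, a glycerophosphodiester phosphodiesterase, read 8.18, 8.75, 8.96 and 7.0 untreated and 9.26, 9.77, 10.31 and 8.24 with Th17 supernatant. Its experiments differed from each other more than its groups did, and its pair differences of 1.08, 1.02, 1.34 and 1.24 were close to each other (mean 1.17 ± 0.09, 2.25-fold, adjusted p 0.247 by limma).

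Cd38, an ectoenzyme that consumes NAD, stood at 8.45, 8.18, 8.12 and 9.0 untreated and at 9.16, 9.80, 9.52 and 10.29 with Th17 supernatant (difference 1.26 ± 0.16, 2.39-fold). Aoah, which removes fatty acyl chains from bacterial lipopolysaccharide, stood at 11.51, 11.74, 12.08 and 11.78 and then at 12.22, 13.33, 13.13 and 12.44 (1.00 ± 0.17, 2.0-fold). Neither gene overlapped between the groups, and both differences were largest in experiment 13. Il4ra, the alpha chain of the IL-4 and IL-13 receptors, had pair differences of 0.71, 1.33, 1.27 and 0.66 (0.99 ± 0.15), but the other probe of this gene gave only 0.12. Vnn3, of the vanin family of pantetheinases, was dim and had pair differences of 0.69, 1.84, 1.18 and 0.71 (1.10 ± 0.21). The adjusted p of these 4 genes was 0.789 by limma. Without experiment 13 their differences were 1.13 for Cd38, 0.81 for Aoah, 0.88 for Il4ra and 0.86 for Vnn3. The next gene down the ranking was Marco, a scavenger receptor, whose smallest pair difference was 0.65, just under the 0.66 of Aoah and Il4ra.

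**Figure D1:**
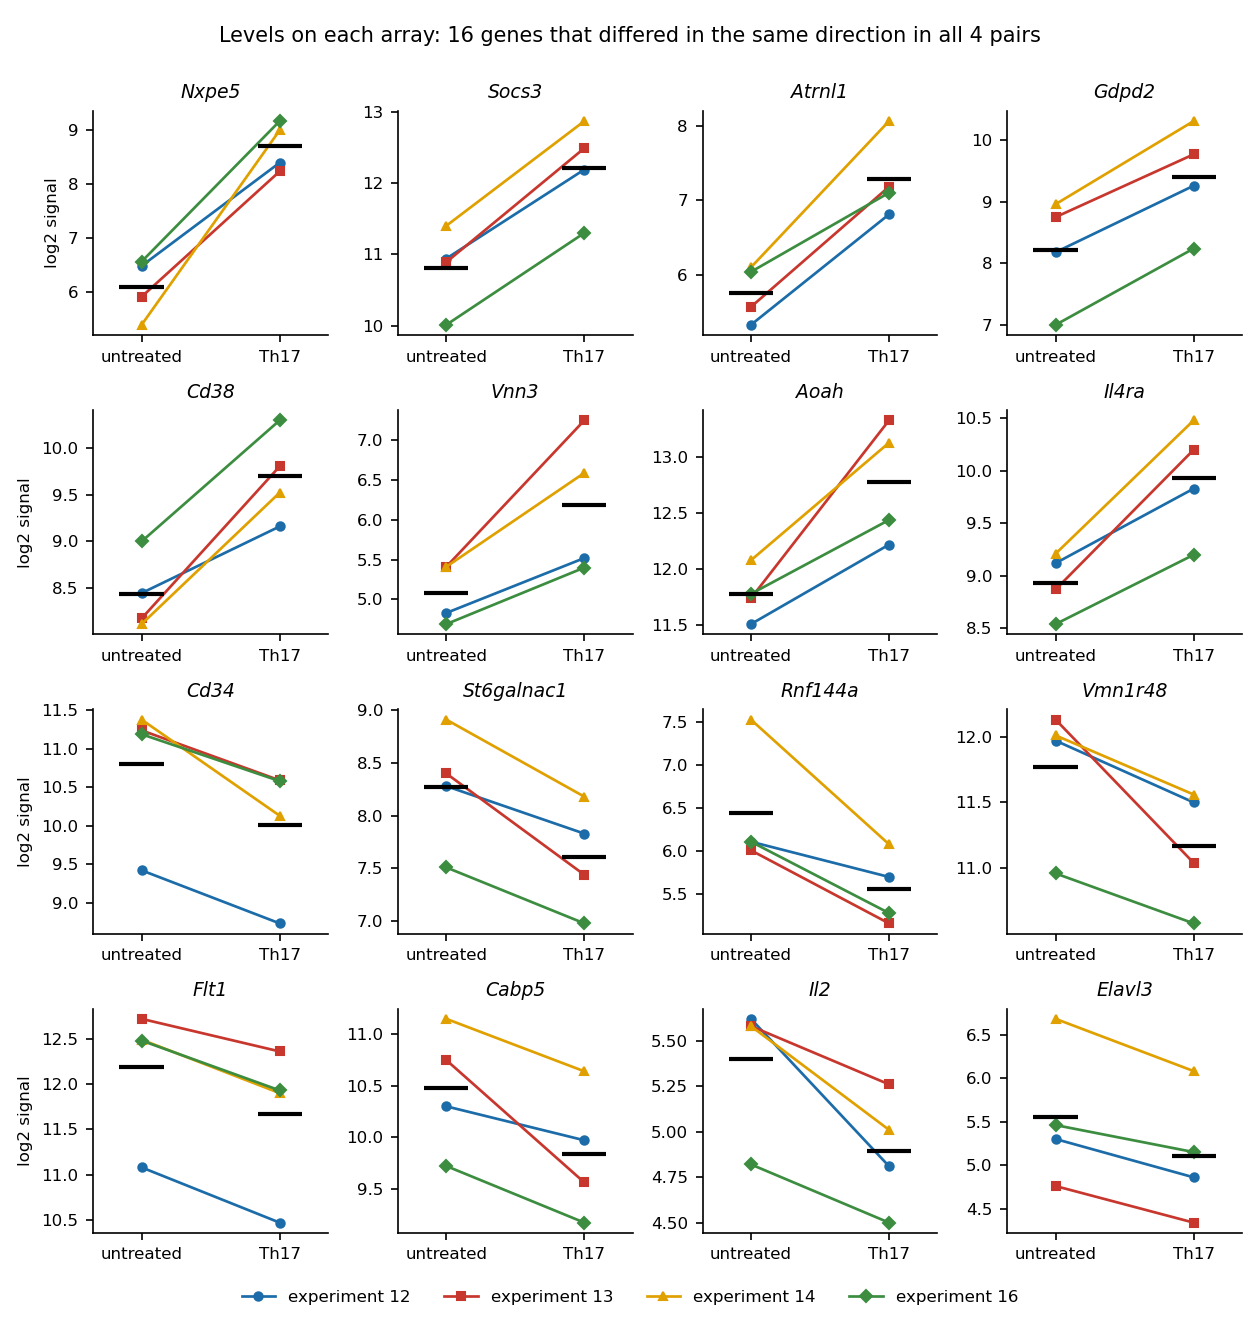
Log2 signal (vertical axis, own range in each panel) on each untreated and Th17 array, with lines joining the arrays of 1 experiment and black bars at the group means, for the 8 higher and 8 lower genes of highest rank. Every line of the 8 upper panels climbs and every line of the 8 lower panels drops, as the rule that chose the genes required, and in panels such as Gdpd2 and Cd34 the experiments lie farther apart than the groups.

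The lower genes of highest rank, by smallest pair difference among genes above background on all 8 arrays, differed by less. Cd34, a sialomucin of progenitor and endothelial cells, read 9.42, 11.24, 11.38 and 11.19 untreated and 8.73, 10.59, 10.13 and 10.58 with Th17 supernatant. Experiment 12 was low in both groups, which therefore overlapped, and the pair differences were -0.69, -0.65, -1.25 and -0.60 (mean -0.80 ± 0.13). Flt1, a receptor for VEGF, read 11.08, 12.72, 12.49 and 12.48 and then 10.47, 12.36, 11.90 and 11.93 (-0.53 ± 0.08). The part of endothelial cells in the differences of Cd34 and Flt1 was not tested. The remaining 6 were St6galnac1, a sialyltransferase (-0.67 ± 0.11), Rnf144a, a ubiquitin ligase (-0.89 ± 0.17), the vomeronasal receptor gene Vmn1r48 (-0.60 ± 0.14), the calcium-binding protein gene Cabp5 (-0.64 ± 0.16), Il2 (-0.51 ± 0.11) and the neuronal RNA-binding protein gene Elavl3 (-0.44 ± 0.08). All 8 had overlapping groups and an adjusted p of 0.789 by limma. Vmn1r48 belongs to a large family of similar genes, and Il2 and Elavl3 lay under 7 on every array, so these levels are near the dim end of the range. The second probe of St6galnac1 gave -0.06 where the named probe gave -0.67, and that of Cd34 gave -0.48. The next genes down the ranking, Rfesd and Otog, had smallest pair differences of -0.30 and -0.29. Without experiment 13 the 8 differences lay between -0.43 and -0.90. Spink1, which is not among these 8, had the smallest p of the lower genes. Its difference was -0.81 ± 0.08 (unadjusted p 9.73e-05 and adjusted p 0.523 by limma), and -0.84 without experiment 13. Spink1 was named for its p alone and was not followed further.

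Most genes of the machinery that receives IL-17 gave a measurable transcript, and protein was not measured. Of 21 genes of IL-17 signalling, 18 were measured, 2 were higher in all 4 pairs, 0 lower, and 0 passed the test. Over all genes 7.65% were higher and 7.82% lower in all 4 pairs, and the counts of every list below stand against these shares. The median difference was -0.01, against 0 over all genes. Il17ra read 9.20, 9.20, 9.34 and 9.67 untreated and 8.95, 8.79, 9.47 and 9.25 with Th17 supernatant (-0.24 ± 0.12), and Il17rc read 7.10, 5.97, 6.27 and 7.24 and then 6.80, 7.16, 6.76 and 7.63 (0.44 ± 0.24). Neither receptor chain kept 1 direction in all pairs.

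The members that did were Arid5a and Traf3ip2. Arid5a encodes an RNA-binding protein that stabilises inflammatory transcripts, and it read 10.11, 10.12, 11.04 and 9.60 untreated against 10.72, 11.08, 11.66 and 10.31 with Th17 supernatant. Its pair differences were 0.61, 0.96, 0.62 and 0.71 (mean 0.72 ± 0.09, 1.65-fold, unadjusted p 0.000382 and adjusted p 0.789 by limma), and 0.64 without experiment 13. Traf3ip2, the adaptor Act1, was dim, with differences of 0.36, 0.71, 0.91 and 0.12 (0.53 ± 0.15). The kinase gene Ikbke had differences of -0.18, 1.10, 0.85 and 0.12 (0.47 ± 0.23). The other 13 measured members, Traf2, Traf3, Traf5, Traf6, Tab2, Tab3, Map3k7, Tbk1, Usp25, Tnfaip3, Zc3h12a, Srsf1 and Hsp90aa1, lay between -0.17 and 0.07.

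Transcripts known as IL-17 targets in other cells had no common direction. Of 24 such genes 15 were measured, 2 were higher in all 4 pairs, 2 lower, and 0 passed the test, with a median difference of -0.13. Its pair medians were -0.06, 0.07, -0.21 and 0.06. The chemokines Ccl2 and Ccl7, which attract monocytes, were the higher members. Ccl2 read 12.82, 13.33, 12.46 and 16.03 untreated and 13.04, 15.56, 13.70 and 16.17 with Th17 supernatant. Its differences of 0.23, 2.23, 1.24 and 0.14 were large only in experiments 13 and 14 (0.96 ± 0.37, and 0.54 without experiment 13). Ccl7 did likewise, with 0.15, 2.74, 1.31 and 0.26 (1.12 ± 0.45, and 0.57 without experiment 13). In experiments 13 and 14 the Th17 and untreated arrays lay on different slides, and in the other experiments they shared one. Slide and experiment cannot be told apart in these differences.

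The neutrophil chemokines Cxcl1 and Cxcl2 were the lower members. Cxcl1 differed by -0.36, -0.26, -1.98 and -0.22 (-0.71 ± 0.32) and Cxcl2 by -0.07, -0.31, -1.44 and -0.35 (-0.54 ± 0.24). Experiment 14 weighed most in both, whose means were -0.28 and -0.24 without it, and its untreated array was the highest of the 8 for both genes, at 11.00 and 10.33. The same untreated array was the highest for the inflammatory genes Il1b (15.44) and Ptgs2 (11.16), whose differences were -0.10 ± 0.30 and -0.39 ± 0.36. Other classical targets changed direction between pairs, among them Lcn2, a siderophore-binding protein (-0.27 ± 0.27), Nfkbiz, a nuclear regulator of NF-kB (0.27 ± 0.23), and Tnf (-0.19 ± 0.26). Cebpd (0.24 ± 0.15) and Mmp13 (0.22 ± 0.12) each had 1 pair of opposite direction, and Mmp9, Zc3h12a, Cebpb and S100a8 lay between -0.21 and 0.11. Il6, Csf3, Cxcl3, Cxcl5, Mmp3 and S100a9 were above background on 1 or 2 of the 8 arrays, and Ccl20, Csf2 and Steap4 on 0.

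Several genes of STAT3 signalling were slightly higher in every experiment. Of 20 genes on this list 19 were measured, 7 were higher in all 4 pairs (7.65% of all genes were) and 2 were lower (7.82%). None passed the test, and the median difference was 0.24, or 0.10 without experiment 13. Stat3 itself read 12.48, 12.50, 12.87 and 12.35 untreated and 12.83, 12.90, 13.26 and 12.73 with Th17 supernatant. Its differences of 0.35, 0.41, 0.39 and 0.38 were nearly equal in the 4 experiments (mean 0.38 ± 0.07, 1.3-fold, unadjusted p 0.0025 and adjusted p 0.789 by limma), and a second Stat3 probe gave 0.25. The groups overlapped only through untreated 14.

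Bcl3, a nuclear partner of NF-kB and a known STAT3 target, read 12.35, 12.78, 13.35 and 12.21 and then 12.84, 13.72, 13.77 and 12.75 (0.60 ± 0.11, and 0.48 without experiment 13). Il21r, the IL-21 receptor, read 9.96, 9.94, 9.66 and 9.78 and then 10.17, 11.13, 10.48 and 10.17. Its Th17 arrays all lay above its untreated arrays, which held for 1 of the 19 genes and for 0.531% of all genes (0.65 ± 0.18, and 0.47 without experiment 13). Socs3 and Il4ra belong to the same list. Lifr had a difference of 0.50 ± 0.20 with 1 pair of opposite direction, and Fos, an early-response gene, was lower in all 4 pairs (-0.28 ± 0.10).

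Receptors and feedback genes of other cytokines showed small differences of the same kind. Of the GM-CSF, IL-2 and STAT5 list 5 of 17 measured genes were higher in all 4 pairs and 1 was lower, with a median of 0.16 that was 0.06 without experiment 12 or 14. Il2rg, the receptor chain that IL-2, IL-4 and IL-21 share, differed by 0.39, 1.86, 0.77 and 0.54 (0.89 ± 0.26, and 0.57 without experiment 13). Cish, the STAT5 feedback inhibitor with 2 motifs at its start, read 4.89, 3.91, 6.53 and 5.38 untreated and 5.21, 5.73, 8.87 and 5.98 with Th17 supernatant. It was at the floor on untreated 13, so the difference of that pair is a lower bound, and it was well above background on 3 of 4 untreated and 4 of 4 Th17 arrays (1.27 ± 0.37). The dim transcription factor gene Irf4 differed by 0.55 ± 0.12. Of the IL-4, IL-13 and STAT6 list 5 of 14 were higher in all 4 pairs and 1 lower, with a median of 0.32 that was 0.09 without experiment 13. The members were Il4ra and Cish again, and Mrc1, Clec10a and Ccl24, with differences of 0.85 ± 0.16, 0.89 ± 0.28 and 0.35 ± 0.10. Clec10a had pair differences of 0.90, 0.72, 1.87 and 0.07, and its mean was 0.56 without experiment 14.

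**Figure D2:**
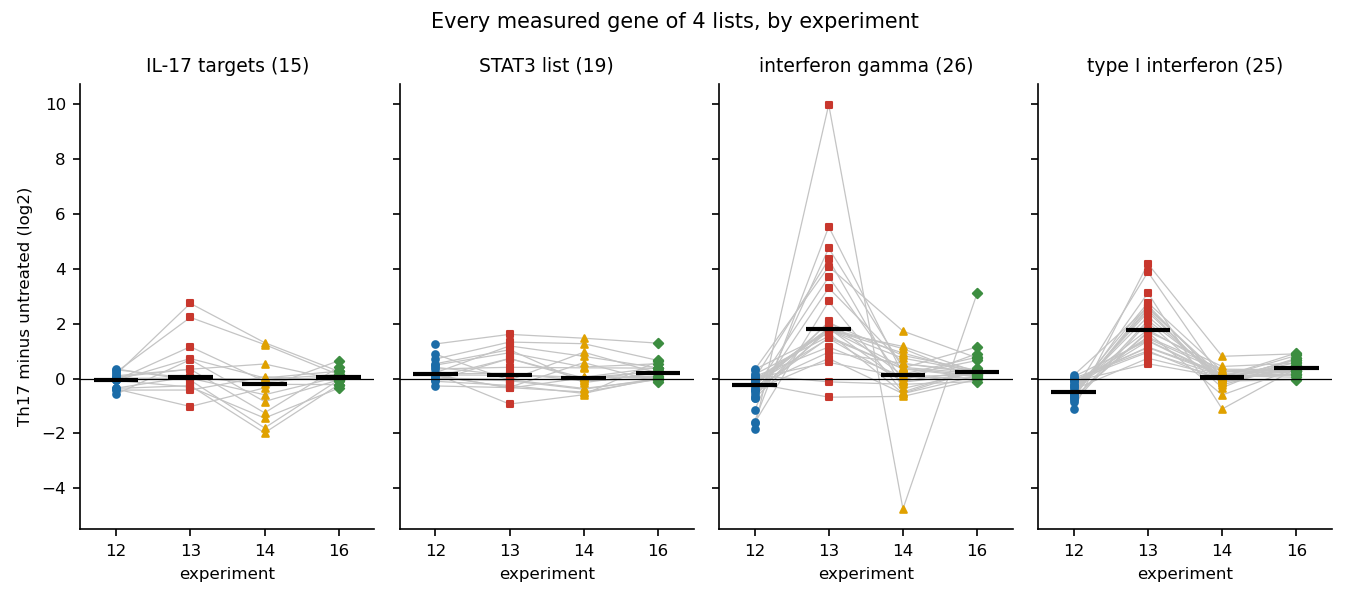
Differences between the Th17 and untreated array (log2, vertical axis) in experiments 12, 13, 14 and 16 for every measured gene of 4 lists, with grey lines joining 1 gene and black bars at the list median. The IL-17 and STAT3 lists stay around 0 in all experiments, with medians from -0.21 to 0.21, while both interferon lists reach medians of 1.80 and 1.78 in experiment 13 alone.

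Markers of perivascular macrophages, another macrophage type of the brain, were higher as well, without passing the test. Of 10 such markers 8 were measured, 4 were higher in all 4 pairs, 0 lower, and the median difference was 0.67, with pair medians of 0.71, 0.72, 0.80 and 0.41. The mannose receptor Mrc1 read 13.46, 12.44, 12.30 and 12.67 untreated and 14.17, 13.16, 13.73 and 13.20 with Th17 supernatant. Cbr2, a carbonyl reductase, read 7.95, 8.30, 8.88 and 8.38 and then 8.82, 9.47, 9.32 and 8.98 (0.77 ± 0.14), and a second Cbr2 probe gave 0.44. The lectin Clec10a and Cd38 were the other members. Pf4 (0.39 ± 0.24) and F13a1 (0.57 ± 0.33) had pairs of opposite direction, and the defining markers Lyve1 and Cd163 were above background on 0 of the 8 arrays. The summed linear signal of the 8 markers ran from 198000 to 268000 on the untreated and from 194000 to 293000 on the Th17 arrays, and its part in the results was not tested. Fewer cells of a type and less RNA per cell cannot be told apart in such samples.

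Genes of resting microglia differed in both directions. Of 34 such genes 33 were measured, 3 were higher and 5 lower in all 4 pairs, and the median difference was -0.02. Cx3cr1, the fractalkine receptor, differed by -0.43, -0.25, -0.31 and -0.34 (-0.33 ± 0.08) and the ADP receptor P2ry12 by 0.33, 0.29, 0.77 and 0.24 (0.41 ± 0.12). Tgfbr1, the receptor that keeps microglia in their resting state, differed by -0.12, -0.65, -0.62 and -0.40 (-0.45 ± 0.12), and Gpr34 by -0.57 ± 0.33, mostly through experiment 13. On the TGF-beta and SMAD list 3 of 19 were higher and 6 lower in all 4 pairs, with Tgfbi at 0.74 ± 0.14 and Pmepa1 at -0.55 ± 0.16.

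Among phagocytosis and complement genes 4 of 25 were higher and 1 lower in all 4 pairs, with a median of 0.05. Without experiment 13, 11 were higher and 3 lower in all 3 remaining pairs (13.1% and 12.4% of all genes were), with a median of 0.08. The complement genes C3 and Cfb were among the higher, at 0.44, 3.15, 0.81 and 0.68 for C3 and at 0.33, 4.30, 0.58 and 1.13 for Cfb, and their differences of 1.27 ± 0.47 and 1.58 ± 0.68 became 0.65 and 0.68 without experiment 13. Of 13 chemokine receptors 3 were higher and 3 lower, the latter including Cxcr4 (-0.23, -2.03, -1.35 and -0.12 by pair, mean -0.93 ± 0.35, and -0.57 without experiment 13) and Ccrl2 (-0.15, -0.63, -1.01 and -0.09 by pair, mean -0.47 ± 0.18, and -0.29 without experiment 14), with Ccr3 at 0.54 ± 0.15. Cell cycle genes were higher in all 4 pairs in 11 of 32 cases (7.65% of all genes were) and lower in 0 (7.82%). They include Mki67 (0.40 ± 0.13), Plk1 (0.34 ± 0.13) and Kif11 (0.31 ± 0.09). Their list medians were -0.04 and 0.02 in experiments 12 and 16, where both arrays of the pair shared a slide, and 0.32 and 0.44 in experiments 13 and 14, where they did not. The differences of Cxcr4 and Ccrl2 were also larger in experiments 13 and 14. Slide and experiment cannot be told apart in these pairs. Early-response genes were lower in all 4 pairs in 4 of 25 cases and higher in 0, namely Fos, Ier5, Dusp1 and Maff. The largest differences on that list, of Nr4a1 (-0.58 ± 0.22) and Nr4a2 (-0.51 ± 0.35), did not keep 1 direction in all pairs. Il18 (0.48 ± 0.15) and the lipid exporter gene Abca1 (0.66 ± 0.15) were higher in all 4 pairs, as was Cst7 (1.03 ± 0.43), which rests mainly on experiment 13 (0.48 without it). Of 24 cholesterol synthesis genes 0 were higher and 0 lower in all 4 pairs, with pair medians of 0.15, -0.30, 0.60 and 0.02. Without experiment 13, 10 of them were higher and 0 lower in all 3 pairs, with a median of 0.28. Leaving out 1 experiment at a time moved this median from -0.06 to 0.28.

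**Figure D3:**
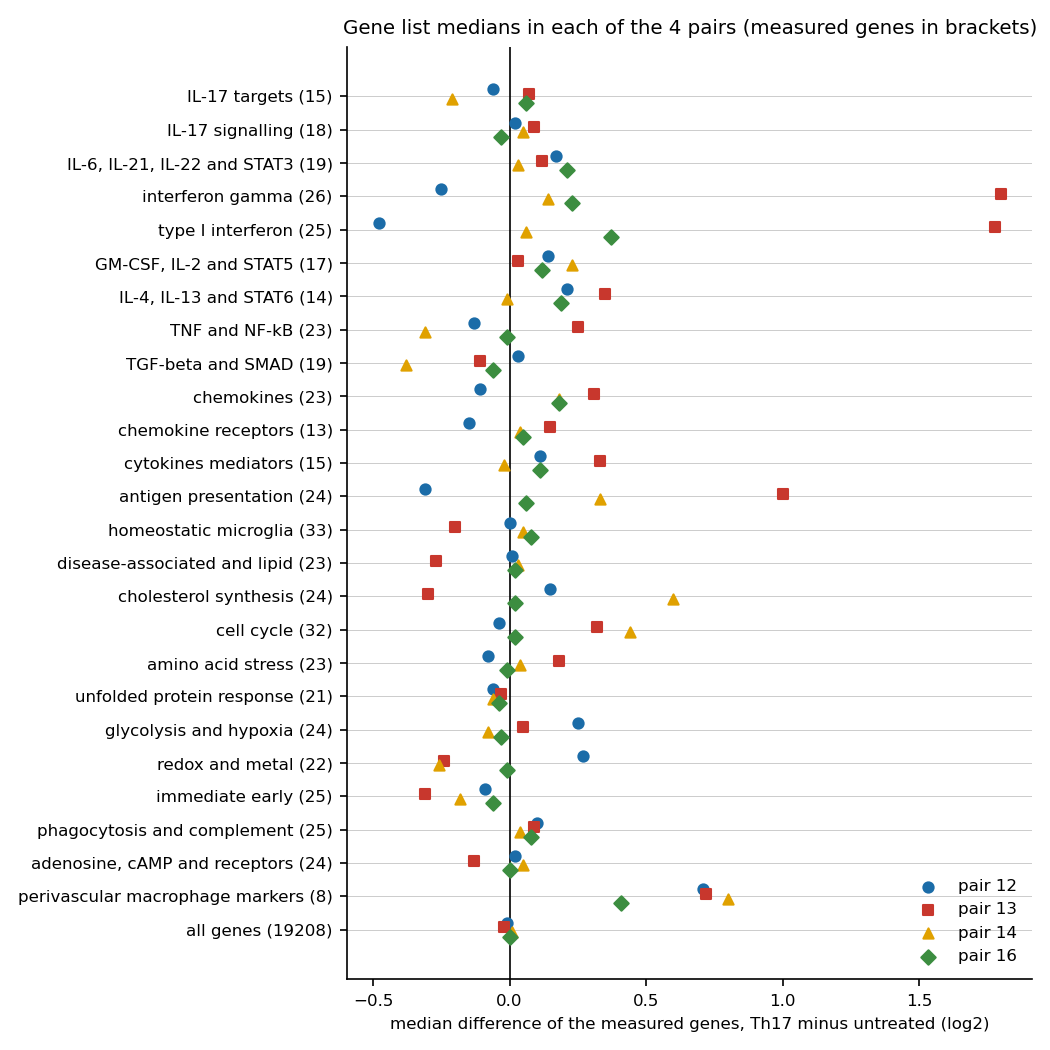
Median difference between Th17 and untreated microglia (log2, horizontal axis) of the measured genes of 24 pathway lists, the perivascular macrophage markers and all genes, with 1 point for each of the 4 experiments. Most lists lie within 0.5 of 0 in every experiment, the perivascular markers lie between 0.41 and 0.80 in all 4, and the interferon and antigen presentation lists stand at 1.00 to 1.80 in experiment 13 only.

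Experiment 13 differed from the others by a set of interferon-inducible genes. Over all genes the median absolute difference was 0.137, 0.198, 0.216 and 0.0962 in pairs 12, 13, 14 and 16, so pair 14 was the widest. Of 26 measured genes of the interferon gamma list, 21 were over 2-fold higher on Th17 13 than on untreated 13 (2.17% of all genes were), against 0 in experiment 12 (1.38%), 3 in experiment 14 (1.58%) and 2 in experiment 16 (0.823%). Of 25 genes of the type I interferon list the counts were 22, 0, 0 and 0. The interferon gamma list held 4, 0, 1 and 0 genes over 2-fold lower in experiments 12, 13, 14 and 16. The type I list held 1, 0, 1 and 0 such genes, and the shares of all genes were 0.891%, 1.59%, 2.07% and 0.677%. The list medians in experiments 12, 13, 14 and 16 were -0.25, 1.80, 0.14 and 0.23 for interferon gamma and -0.48, 1.78, 0.06 and 0.37 for type I interferon. The Th17 array of experiment 13 was the highest of all 8 arrays for 20 of 26 and for 20 of 25 of these genes (16.9% of all genes), and the untreated array of that experiment was the lowest for 8 and for 0 (6.01%).

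Among the genes of these lists the chemokine Cxcl9 showed it most. It read 7.08, 3.91, 9.92 and 3.91 untreated and 5.23, 13.89, 5.17 and 7.02 with Th17 supernatant, with untreated 13 and 16 at the floor. The pair differences of -1.85, 9.98, -4.75 and 3.11 had no common direction (1.62 ± 2.39, and -1.16 without experiment 13). Tgtp2 read 8.33, 7.03, 9.14 and 6.71 and then 6.76, 12.55, 9.30 and 7.48, and transcripts of its near-identical copy Tgtp1 may bind the same probe, so the gene is uncertain. Gbp2 read 10.04, 8.10, 10.63 and 8.79 and then 8.88, 12.85, 11.03 and 9.94. The groups overlapped in all 3 genes, and the Th17 array of experiment 13 was the highest of the 8 in each. The means were 1.22 ± 1.13 for Tgtp2 and 1.28 ± 0.93 for Gbp2, and -0.21 and 0.13 without experiment 13.

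Gbp6 (pair 13 difference 4.34), Zbp1 (4.18), Oas3 (3.88) and the chemokine Ccl5 (4.65) followed the same pattern. So did the B cell chemokine Cxcl13 (-0.62, 5.46, 2.07 and 1.68) and Ccl8 (-0.38, 5.97, 0.94 and 2.82), though with sizeable differences in experiments 14 and 16 too. Antigen presentation genes had pair medians of -0.31, 1.00, 0.33 and 0.06, with the class II chaperone Cd74 at -0.93, 2.92, 0.49 and 0.36 and the co-stimulatory receptor Cd40 at -0.32, 2.49, 0.85 and -0.09. Gbp7 was higher in all 4 pairs, at 0.31, 4.08, 1.73 and 0.75, and kept a difference of 0.93 without experiment 13.

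The median log2 level of the interferon gamma list was 10.12, 9.49, 10.69 and 9.58 on the untreated arrays and 9.35, 12.38, 10.90 and 9.93 on the Th17 arrays of experiments 12, 13, 14 and 16, against 16.12 to 16.39 on the 4 Th1 arrays. Th17 13 thus lay above all other arrays without Th1 supernatant and below every Th1 array. For type I interferon genes it was 12.19, against 9.83 to 11.61 on the other 7 arrays and 13.84 to 14.55 on the Th1 arrays. Th17 13 shared its slide with untreated 14 and the Th1 arrays of experiments 13 and 14, and untreated 13 lay on another slide. Pair 14 also spanned 2 slides and had list medians of 0.14 and 0.06. Th17 13 also had the highest 75th percentile of processed signal before scaling (2214.5, against 1199.6 for the lowest array). The part of slide, signal or supernatant batch in the pattern of experiment 13 was not tested.

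Motif shares describe the same lists. Of 20 interferon gamma genes with a listed promoter window 9 held the STAT-type motif (45%) and 10 the interferon-type motif (50%), and of 20 type I interferon genes 5 (25%) and 12 (60%), against 9.55% and 3.99% of all 27025 genes with a window. Of 16 genes of the STAT3 list 3 held the STAT-type motif (18.8%) and 0 the interferon-type motif, and of 10 IL-17 targets 0 and 1.

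Other large differences of experiment 13 came from a single untreated array. Hyou1, a chaperone gene, and the kinase gene Cilk1 were at 3.91 and 3.94 on untreated 13 and between 7.42 and 8.71 on the other 7 arrays, which gave pair 13 differences of 4.32 and 4.07 and differences of -0.22 and -0.16 without it. In the other direction Cald1 (-3.08), Crygf (-2.82), Akap5 (-2.77), Gpld1 (-2.38) and Kremen2 (-2.33) read 6.29 to 7.49 on untreated 13 and under 5.5 on the other 7 arrays. Mamdc2 differed, since it was bright on the untreated arrays (11.58, 11.63, 10.30 and 11.13) and low on Th17 13 in particular (11.31, 8.41, 9.44 and 10.91).

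**Figure D4:**
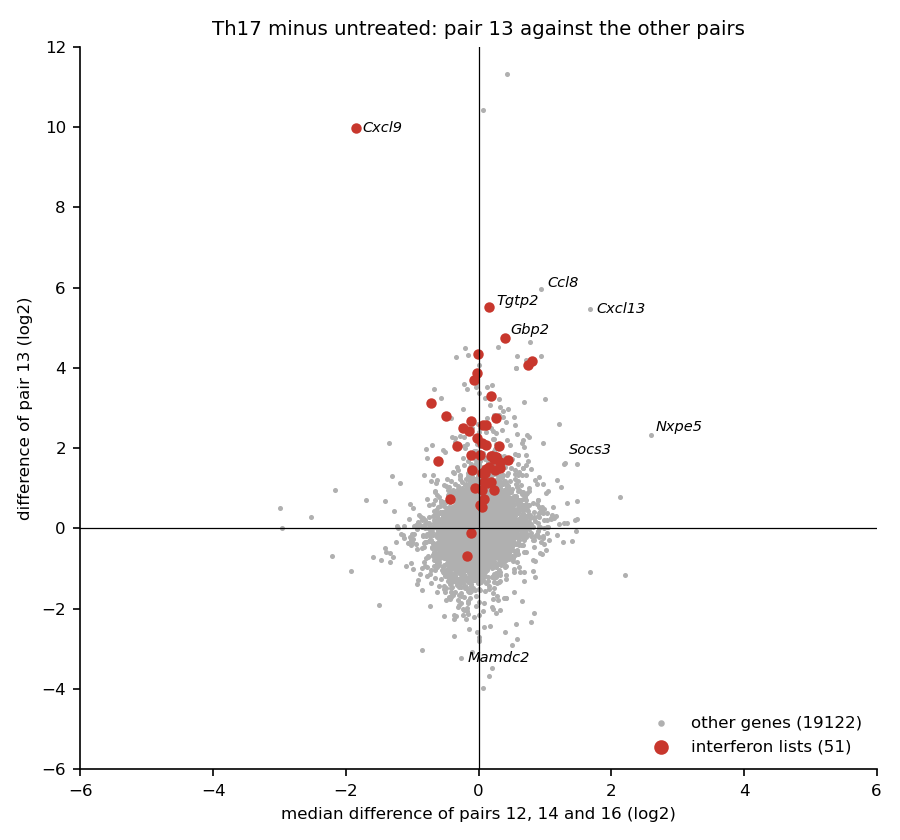
Difference of pair 13 (log2, vertical axis) against the median difference of pairs 12, 14 and 16 (log2, horizontal axis) for 19173 genes with values on all 8 arrays, 51 of them interferon-inducible (red). Of the red points 49 lie above 0 on the vertical axis, among them Cxcl9 at 9.98 and Gbp2 at 4.75, and Socs3 and Nxpe5 are above 0 on both axes.

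Values with Th1 supernatant are set beside these differences next. Both comparisons use the same 4 untreated arrays, so a shared direction is not independent, and the direct difference between Th1 and Th17 arrays is given too. It uses the Th17 arrays on which these genes were chosen or seen, so its p-values are not free of that choice. Socs3 (5.50 ± 0.22 with Th1 against 1.41 with Th17), Il4ra (5.66 ± 0.17 against 0.99), Cd38 (5.97 ± 0.29 against 1.26), Arid5a (5.43 ± 0.18 against 0.72), Cish (5.88 ± 0.46 against 1.27), Il2rg (3.50 ± 0.24 against 0.89) and Aoah (3.19 ± 0.20 against 1.00) were higher with Th1 than with Th17 supernatant, with adjusted p from 8.1e-07 to 6.66e-05 for the direct difference by limma. Nxpe5 stood at 3.46 ± 0.31 against 2.61, and the direct difference of 0.85 ± 0.31 passed narrowly (adjusted p 0.0449 by limma). Stat3 stood at 1.58 ± 0.09 against 0.38.

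A few genes had differences of opposite sign. Gdpd2 was -3.14 ± 0.35 with Th1 and 1.17 with Th17 supernatant, a direct difference of -4.31 ± 0.35 (adjusted p 2.21e-05 by limma). Vnn3 was -1.06 ± 0.24 against 1.10 (direct difference -2.17 ± 0.24, adjusted p 0.000114 by limma), Cbr2 -1.15 ± 0.16 against 0.77 (-1.92 ± 0.16, adjusted p 2.92e-05 by limma) and Flt1 0.94 ± 0.14 against -0.53 (1.46 ± 0.14, adjusted p 5e-05 by limma). Irf4 was also of opposite sign, at -0.64 ± 0.23 against 0.55 (-1.19 ± 0.23, adjusted p 0.00229 by limma). Mrc1 had the same sign with both, at 0.15 ± 0.21 with Th1 against 0.85 with Th17. Its direct difference of -0.69 ± 0.21 passed (adjusted p 0.0201 by limma). For St6galnac1, Rnf144a, Cabp5 and Il2 the direct difference did not pass (adjusted p 0.0629, 0.362, 0.156 and 0.283 by limma), with estimates of 0.43 ± 0.17, -0.47 ± 0.41, 0.42 ± 0.23 and 0.22 ± 0.16.

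**Figure D5:**
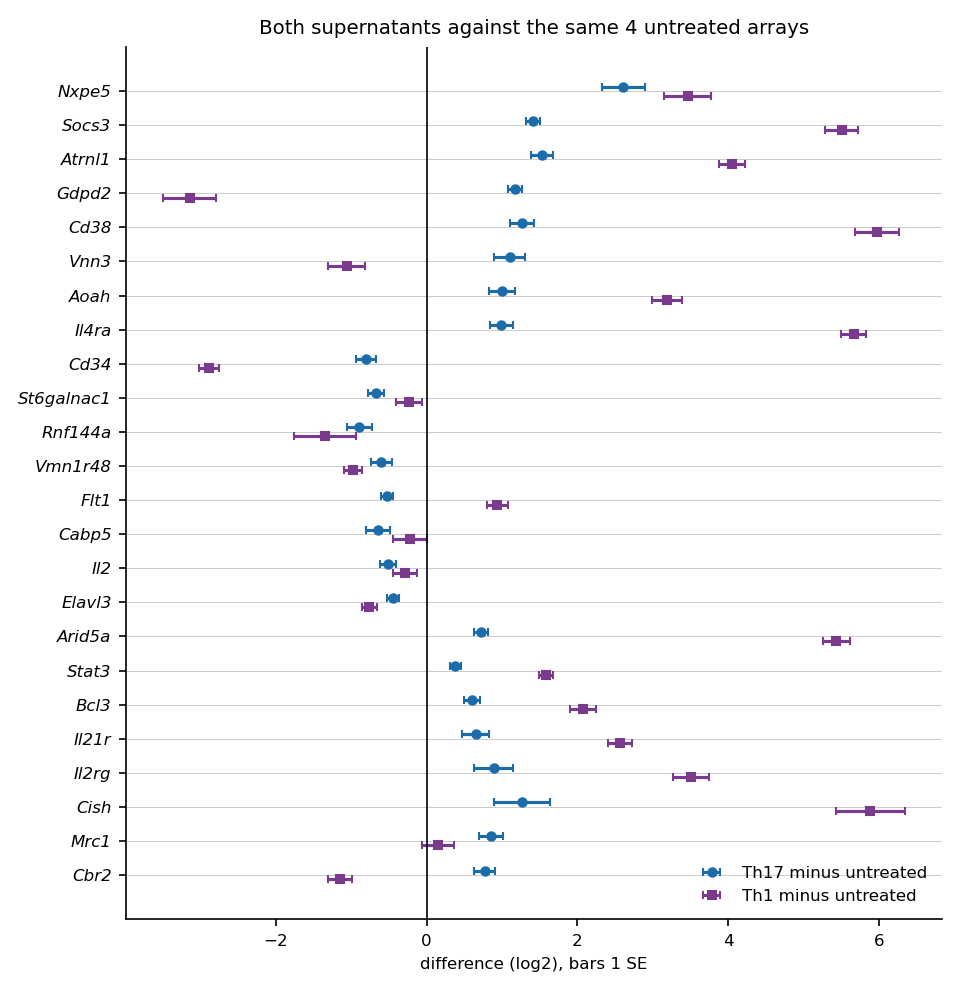
Difference from the untreated arrays (log2, horizontal axis) with Th17 (circles) and Th1 supernatant (squares) for 24 named genes, with bars of 1 SE from the limma fits. Most circles lie within 1.6 of 0, the circle of Nxpe5 at 2.61, and Gdpd2, Vnn3, Cbr2 and Flt1 have their circle and square on opposite sides of 0.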

How the data were processed

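RNA of 12 samples, labelled with Cy3 alone, was measured on Agilent mouse arrays, 4 to a slide. Per the file headers, Feature Extraction 10.7.3.1 by Agilent turned the scans into numbers (probe annotation of build mm9), and the deposited scanner files hold background-subtracted spot intensity values on a linear scale. A deposited value table holds log2 values that matched scaled, probe-centred processed signals of the same arrays (r of at least 0.99999 over 19915 bright probes, column medians -0.226 to 0.18) and served as an alternative. How the authors centred it is not given in the sources used here.

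From 43020 non-control spots per array, those marked as non-uniform or outliers were left out (103 to 230), none was saturated, and spots of 1 probe were averaged. Values of 39429 probes were quantile normalised over all 12 arrays, scaled to a 75th percentile of 1500, floored at 15 and log2 transformed. A probe was kept if at least 4 of the 8 arrays marked it as well above background (23581 probes), and the brightest stood for each gene (19208 genes, 13584 with a symbol). Of all probes 27234 (69.07%) matched a symbol through accessions in RefSeq (GRCm38.p6, names and promoter windows only). Per array 55.84% to 64.99% of the probes were well above background. The number of arrays limits the precision.

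Groups were compared with limma 3.58.1 (R 4.3.3) with the experiment number as a block and Benjamini-Hochberg adjustment over all genes, with unadjusted counts at 0.05. The numbers pair the samples: deviations from the group means of equal-numbered arrays correlated at 0.30 to 0.66, and those of other numbers at -0.44 to 0.12. For 35 genes, none named here, an array was missing (Spink1 was not checked for this). The code was tested on simulated data. Named genes were, per direction, the 8 with a symbol, above background on all 8 arrays and of 1 sign in all pairs with the largest smallest difference, the 2 members of largest difference of each list, all IL-17 members, and the 6 genes most particular to pair 13 per direction. Others named, such as Stat3, Gbp2 and Cx3cr1, were picked from the lists after their values were seen. The members, the 33 gene lists and the rules were chosen with earlier results of these data known. Lists were described by counts and medians, without a test. P-values measure the spread between the 4 experiments.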

Additional observations from a re-analysis of the deposited data

Results flagged for a closer look

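The levels of 85 genes named above were checked in each group for a single array far from the other 3 (Dixon's ratio past its 95% critical value), which chance alone gives in about 1 of 20 groups of 4. This happened in 10 of 170 sets of 4 values. The count cannot be compared with that share, since some of these genes were chosen for their values in experiment 13. The low arrays were untreated 12 for Cd34 (9.42, nearest other array 11.19) and Flt1 (11.08, nearest 12.48), untreated 16 for Vmn1r48 (10.96, nearest 11.97) and Il2 (4.82, nearest 5.58), and untreated 13 for Hyou1 (3.91, nearest 8.54) and Cilk1 (3.94, nearest 7.68). The high arrays were untreated 14 for Rnf144a (7.53, nearest 6.11), Th17 16 for Irf4 (5.97, nearest 4.87), and untreated 13 for Kremen2 (7.49, nearest 3.91) and Crygf (7.23, nearest 4.45). In Cd34, Flt1, Vmn1r48, Il2, Rnf144a and Irf4 the partner array of the same experiment lay on the same side of its group mean.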

How the results depend on the processing

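Both kinds of call stayed at 0 under every alternative run, with a lowest adjusted p of 0.103 (limma, normexp background correction on the median signal). The numbers at an unadjusted p under 0.05 depended on the pairing: without the replicate block on 8 arrays the calls were 0, the lowest adjusted p was 0.476, and 174 genes were higher and 124 lower, against 586 and 598 with the block. They were 258 and 206 with slide in place of experiment, 259 and 313 with both as blocks, 173 and 144 on 12 arrays without the block, and 372 and 790 in the deposited value table. The cause was not tested. Alternatives with both blocks and with normexp were chosen after seeing the data, and the planned normexp on the mean signal was not run. All other alternatives but those printed here left the named differences with their sign, and Spink1 was not followed.

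The difference came to 0.00 for Gpld1 under normexp and to 0.00 for Il2 with a floor of 50, which lies above all untreated levels of Il2. Differences changed sign for Gpld1 without the filter (0.71), for Kremen2 without a floor (0.11) and with slide as block (0.05), and for Cilk1 with all 8 arrays above background (-0.08). With experiment and slide as blocks they were 0.15 for Lcn2, 0.18 for Il1b, -0.20 for Hyou1, -0.03 for Cilk1, 0.55 for Kremen2, 0.14 for Akap5, 0.24 for Gpld1 and -0.13 for Cd74. Leaving out 1 experiment at a time gave ranges of -0.67 to 0.40 for Gpld1, -0.51 to 0.65 for Kremen2, -0.16 to 1.38 for Cilk1, -0.22 to 1.38 for Hyou1, -0.98 to 0.04 for Akap5, -0.02 to 1.26 for Cd74, -0.03 to 0.39 for Nfkbiz, -1.16 to 3.75 for Cxcl9, -0.21 to 2.16 for Tgtp2 and -0.05 to 1.52 for Gbp6, each turning without experiment 13. It gave -0.27 to 0.29 for Il1b, -0.49 to 0.02 for Tnf and -0.64 to 0.08 for Ptgs2, turning without experiment 14. List medians ranged from -0.19 to 0.08 for IL-17 targets, 0.10 to 0.31 for STAT3, 0.06 to 0.19 for STAT5, 0.09 to 0.43 for STAT6, -0.07 to -0.02 for chaperones, -0.01 to 0.08 for phagocytosis and -0.33 to -0.16 for neuron markers. Genes higher in every pair numbered 2511 to 2732 and lower 2385 to 2930 when 1 experiment was left out. Dim genes, near the floor on some arrays, have only bounds there.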
